A study of Mus musculus with 6 samples.

Results

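miR-224 and miR-452 are microRNAs (miRNAs) cut from 2 hairpins in the same intron of Gabre, and their abundance was followed in mouse primary mesangial cells that did or did not receive the cytokine transforming growth factor-β1 (TGF-β1). The rows were chosen by name: every arm of the hairpins miR-224 and miR-452, which gave 4 of the 778 mature miRNAs in the table (mmu-miR-224-5p, mmu-miR-224-3p, mmu-miR-452-5p and mmu-miR-452-3p, written below without the species prefix). They were chosen with the difference between Control and TGF-β1 already known, and the question set for them was whether the neighbour and the other arm are higher together with miR-224-5p. That difference is therefore described here and not tested.

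Mesangial cells are contractile cells that hold the capillary loops of the glomerulus together. They were grown in 25.5 mM glucose and 20% serum and used at passages 3 to 6. The TGF-β1 group held 3 libraries from cells that had spent 72 h with the cytokine at 10 ng/ml, and the Control group held 3 libraries from the same kind of cells without the cytokine. No vehicle for Control, and no strain, sex or age of the donor mice, is given in the sources used here. Nothing says whether the 3 libraries of a group came from separate cultures, so the p-values below measure only the spread between these libraries, which may be technical.

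A hairpin inside an intron is released from the host transcript by Drosha and trimmed by Dicer to a short duplex. One strand of the duplex is usually kept in Argonaute as the guide and the other is mostly degraded, and the bases 2 to 8 of the guide, the seed, pair with target mRNAs. Gabre encodes the epsilon subunit of the GABA-A receptor, a chloride channel. miR-224 is known for its high level in liver cancer, and it has been reported to respond to TGF-β1 in ovarian granulosa cells and to act on Smad4, the Smad shared by the branches of TGF-β signalling.

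The sequences below identify what was counted, with the seed in capitals in each mature miRNA. They are from RefSeq (GRCm38.p6).
miR-224-5p: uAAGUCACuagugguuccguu
miR-224-3p: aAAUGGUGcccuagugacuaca
miR-452-5p: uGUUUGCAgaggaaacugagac
miR-452-3p: uCAGUCUCaucugcaaagaggu
The 4 seeds differ from each other, and 0 other mature mouse miRNAs in the RefSeq table carry any of them. The longest run of bases that miR-224-5p shares with another mature mouse miRNA was 9, and that of miR-452-5p was also 9. 0 other rows of the table held the same reads as any of the 4 arms.

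The hairpins show where the arms sit, with both mature arms in capitals.
Mir224: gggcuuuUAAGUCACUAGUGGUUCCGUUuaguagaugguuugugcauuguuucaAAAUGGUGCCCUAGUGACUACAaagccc
Mir452: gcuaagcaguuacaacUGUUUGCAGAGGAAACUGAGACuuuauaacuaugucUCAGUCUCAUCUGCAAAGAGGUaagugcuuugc
On the NCBIM37 mouse genome, where both hairpins had the same sequence, Mir224 (ENSMUSG00000065542.1) lies on the minus strand at chrX:69506370-69506451 and Mir452 (ENSMUSG00000070138.1) at chrX:69507563-69507647. miR-224-5p takes the bases from 69506424 to 69506444, and miR-452-5p those from 69507610 to 69507631. Both hairpins lie in intron 6 of Gabre (ENSMUSG00000031340.8, 9 exons in ENSMUST00000064780.3), on the strand of the gene, and overlap 0 of its annotated exons. Mir452 comes first in the direction of transcription, 136 bases into the intron, and Mir224 follows after 1111 bases. Between them the annotation has 1 exon of 169 bases that belongs to another Gabre transcript, ENSMUST00000148499.1.

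**Figure D1:**
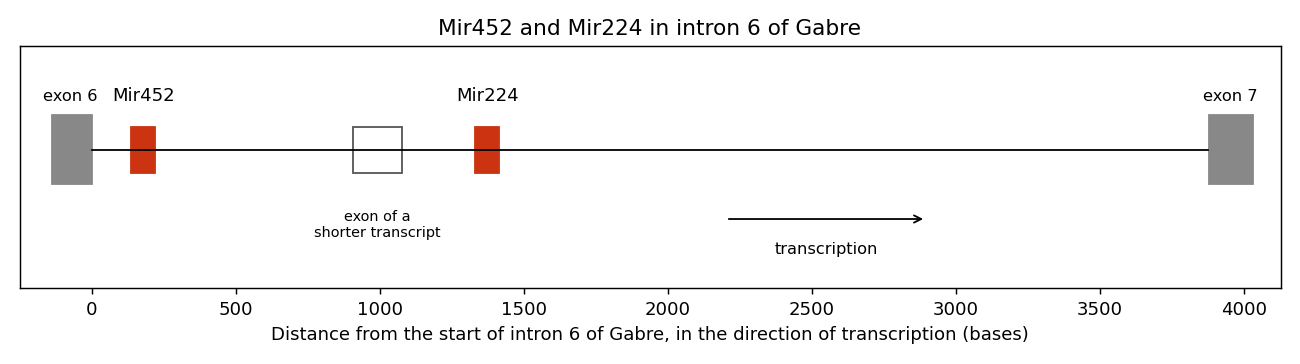
The x axis gives the distance in bases from the start of intron 6 of Gabre, in the direction of transcription, with the flanking exons in grey, the hairpins in red and the exon of the other transcript as an open box. Both hairpins lie in the part of the 3878-base intron that is nearer to exon 6, with Mir452 first.

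Levels are in RPM, the reads of a row for every 1000000 reads that the library holds. The library totals ran from 16478281 to 20169254 reads, so 1 read was worth 0.0496 to 0.0607 RPM, and the 3 reads that a count of 0 still allows came to 0.149 to 0.182 RPM. The listed rows took 79.5% to 79.8% of the total in Control and 71.6% to 73.1% in TGF-β1. Of the contractile and mesenchymal miRNAs checked, miR-143-3p, miR-145-5p, miR-199a-3p, miR-199a-5p and miR-214-3p, all 5 were present. Their summed level was 2587 to 2962 RPM in Control and 2609 to 3075 RPM in TGF-β1, and miR-143-3p alone had 1874 to 2348 RPM over all libraries. The sum hides opposite changes. The mean of miR-145-5p was 127.4 RPM in Control and 238.6 RPM in TGF-β1, and that of miR-199a-5p was 14.0 and 6.93 RPM. The 2 neuronal miRNAs summed to 1.40 to 2.40 RPM, the endothelial miR-126-3p was at 0.0992 RPM or less, and the blood-cell miR-451 was at 0.36 RPM or less. The liver miR-122-5p was at 24.2 to 27.3 RPM in Control and 13.1 to 13.9 RPM in TGF-β1. The 6 epithelial miRNAs summed to 312 to 324 RPM in Control and 342 to 367 RPM in TGF-β1, of which miR-192-5p alone had 290.2 to 304.2 RPM and 337.5 to 361.1 RPM. Within this list miR-200a-3p went the other way, from 12.0 to 13.4 RPM in Control to 0.726 to 1.64 RPM in TGF-β1, as did miR-200b-3p, from 5.52 to 8.13 RPM to 0.351 to 0.892 RPM, while miR-200c-3p and miR-141-3p were at 0.112 RPM or less. miR-194-5p was at 2.04 to 2.64 RPM in Control and 3.41 to 4.51 RPM in TGF-β1. The 3 muscle miRNAs summed to 3285 to 3646 RPM, almost all of it miR-206-3p, while miR-133a-3p stayed at 0.182 RPM or less. The part of other cells in the values below was not tested, and in bulk RNA a change in the number of cells that make a miRNA and a change in its amount per cell cannot be told apart.

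miR-224-5p, the guide arm of its hairpin, had 13.2, 12.2 and 11.7 RPM in Control replicates 1 to 3, from 628 reads in all. In TGF-β1 replicates 1 to 3 it had 30.6, 27.3 and 32.5 RPM, from 1662 reads in all. Every TGF-β1 library lay above every Control library, and the nearest libraries of the 2 groups still differed by 2.07-fold. The mean went from 12.4 ± 0.724 RPM to 30.1 ± 2.65 RPM (SD, n = 3 each), a ratio of 2.43. Among the 778 rows miR-224-5p was number 165 to 172 by level in Control and number 113 to 118 in TGF-β1.

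miR-452-5p, the guide arm of the neighbouring hairpin, had 31.2, 34.0 and 31.8 RPM in Control replicates 1 to 3, from 514, 567 and 560 reads. In TGF-β1 replicates 1 to 3 it had 52.4, 46.9 and 47.1 RPM, from 1057, 840 and 805 reads. The groups again did not overlap, but the gap was smaller, with a ratio of 1.38 between the nearest libraries. The mean went from 32.3 ± 1.48 RPM to 48.8 ± 3.12 RPM (SD, n = 3 each), a ratio of 1.51. Its place by level moved from number 111 to 119 in Control to number 95 to 99 in TGF-β1.

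**Figure D2:**
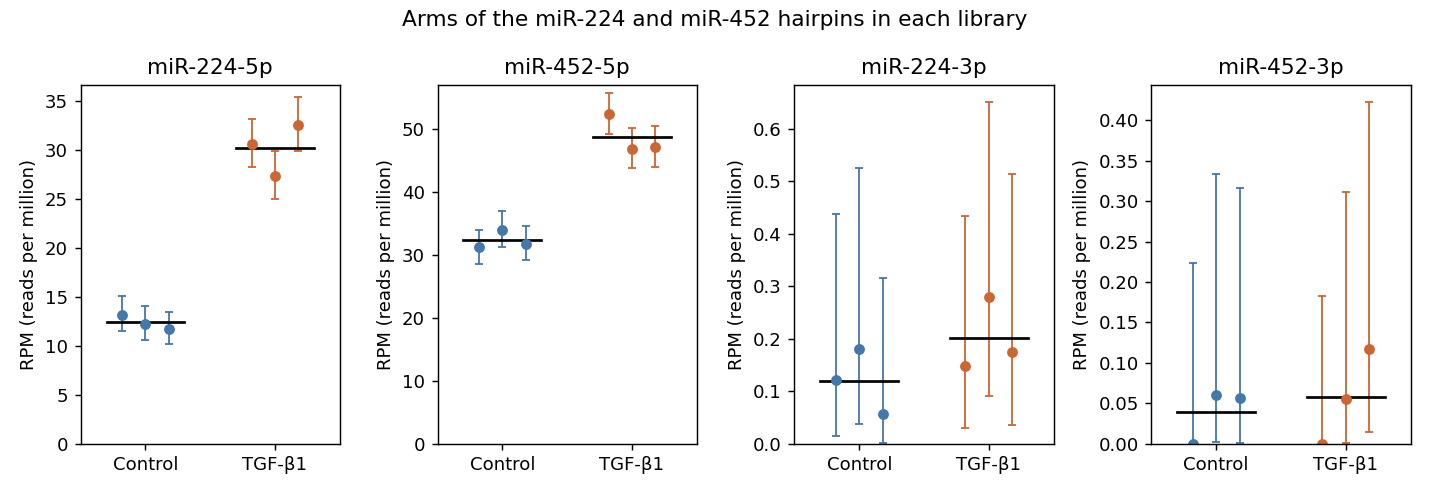
Each panel is 1 arm, with its level in RPM on a y axis that starts at 0 and has its own scale, the Control libraries in blue and the TGF-β1 libraries in orange. Points are libraries, bars are exact 95% Poisson intervals of the reads (counting error only) and black lines are group means. The 5p arms are separated by group, at means of 12.4 and 30.1 RPM for miR-224-5p and 32.3 and 48.8 RPM for miR-452-5p, while the intervals of the 3p arms overlap.

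The other arms were near the limit of detection. For miR-224-3p, Control replicates 1 to 3 held 2, 3 and 1 reads and TGF-β1 replicates 1 to 3 held 3, 5 and 3, that is 0.0567 to 0.18 RPM against 0.149 to 0.279 RPM. The groups overlapped. The 6 reads of Control and 11 reads of TGF-β1 gave a ratio of 1.69 per library total, with an exact 95% counting interval from 0.572 to 5.56. This interval holds both a ratio of 1 and the ratio of 2.44 found for the summed reads of miR-224-5p, so whether the other arm was higher together with the guide arm was not detectable at this depth.

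For miR-452-3p, Control replicates 1 to 3 held 0, 1 and 1 reads and TGF-β1 replicates 1 to 3 held 0, 1 and 2. With 2 and 3 reads in the groups, both were at or under the limit of 3 reads per group, and no fold is given. The 3p arm was 0.737% of the reads of miR-224 over the 6 libraries (17 of 2307, exact Clopper-Pearson 95% interval 0.43% to 1.18%). For miR-452 it was 0.115% (5 of 4348, 0.0373% to 0.268%). By group, the 3p share of miR-224 was 0.946% in Control (0.348% to 2.05%) and 0.658% in TGF-β1 (0.329% to 1.17%), with intervals that overlap. Over 120 hairpins with both arms listed and at least 1000 reads in all, a minimum chosen after the values were seen, the minor arm had a median share of 1.44%. It was below that of miR-224 in 49 of the 120 hairpins and below that of miR-452 in 28.

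The spread between libraries was close to counting error in Control and larger in TGF-β1. The coefficient of variation of miR-224-5p was 5.85% in Control, where counting alone gives 6.91%, and 8.79% in TGF-β1, where counting alone gives 4.26%. For miR-452-5p it was 4.57% in Control against 4.28% from counting, and 6.40% in TGF-β1 against 3.34%.

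On the log2(RPM + 1) scale, fitted with limma over the 408 miRNAs that passed a filter on low reads, the change of miR-224-5p was 1.22 ± 0.13 (SE) and that of miR-452-5p was 0.58 ± 0.11 (SE). The added 1 makes changes of low miRNAs look smaller than they are in RPM. Of the 4 rows, 2 passed the filter, the 5p arms, and both 3p arms did not. Of these 2, miR-224-5p was called higher at a limma adjusted p under 0.05 and a log2 change above 1, against 4.41% of all tested miRNAs called higher. Both were higher at an adjusted p under 0.05 and any fold change, against 17.4% of all tested miRNAs, and both had every TGF-β1 library above every Control library, against 20.8%. Since the rows were chosen on this contrast, these counts are a description. On this scale, larger increases than that of miR-224-5p were seen in 6 of the 408 miRNAs, and larger increases than that of miR-452-5p in 48. These places depend on the added 1. For example, miR-487b-3p, with means of 0.313 RPM in Control and 1.71 RPM in TGF-β1, counts as a smaller increase than miR-224-5p, at 1.04. At the threshold of 1 the miRNA just inside was miR-127-3p, with a log2 change of 1.02, and the one just outside was miR-149-3p, with 0.99.

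Over the 408 miRNAs the median log2 change was -0.17 with library totals and -0.07 after TMM scaling, a method that takes most miRNAs as unchanged. Relative to the median on library totals, miR-224-5p stood at 1.39 and miR-452-5p at 0.75. When scaled to the sum of the listed rows, whose share of the total was lower in TGF-β1, their log2 changes were 1.35 and 0.71. The calls over all tested miRNAs were 18 higher and 32 lower with library totals, 25 and 24 with TMM.

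The ratio of the neighbours within a library does not depend on how libraries are scaled. Reads of miR-224-5p per read of miR-452-5p were 0.422, 0.36 and 0.37 in Control replicates 1 to 3, and 0.584, 0.582 and 0.691 in TGF-β1 replicates 1 to 3. miR-452-5p thus had more reads than miR-224-5p in each of the 6 libraries, with no scaling by length (21 and 22 bases). Whether it also had more molecules was not tested. The ratio was higher in each TGF-β1 library than in each Control library. The mean ratio went from 0.384 ± 0.0335 to 0.619 ± 0.0622 (SD, n = 3 each), a factor of 1.61. The highest Control ratio had an exact 95% counting interval of 0.359 to 0.496, and the lowest TGF-β1 ratio one of 0.52 to 0.652. On the log2(RPM + 1) scale the change of miR-224-5p exceeded that of miR-452-5p by 0.64 ± 0.10 (SE, n = 3 each). The neighbours were thus higher together in TGF-β1, by ratios of 2.43 and 1.51.

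**Figure D3:**
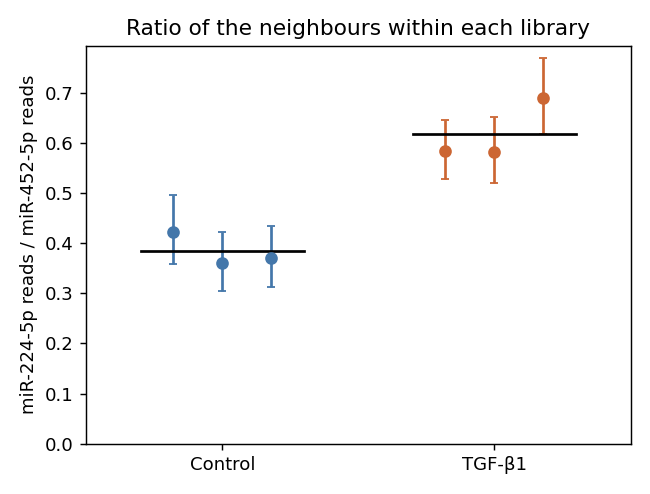
The y axis is the reads of miR-224-5p divided by those of miR-452-5p in each library, starting at 0, with exact 95% counting intervals as bars and group means as black lines. The 3 TGF-β1 libraries, at 0.582 to 0.691, sit above the 3 Control libraries, at 0.36 to 0.422.

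Other close hairpins give a scale for that difference. There were 250 pairs of tested miRNAs of the same arm from different hairpins on 1 strand whose starts lay within 10000 bases, made from 165 miRNAs that often stand in several pairs. miRNAs with hairpins at several loci were kept, such as miR-29b-3p, which was paired on chromosomes 6 and 1. Their reads cannot be split by locus, so such pairs are a rough scale for neighbours at 1 locus. The absolute difference between the log2 changes of a pair had a median of 0.30, with quartiles of 0.12 and 0.50. The difference of 0.64 between miR-224-5p and miR-452-5p was exceeded by 40 pairs, or 16%. These changes are of log2(RPM + 1), which makes those of low miRNAs, and so differences between them, look smaller. miR-369-5p, for example, had means of 0.335 RPM in Control and 0.774 RPM in TGF-β1 and entered with a log2 change of 0.41. No other pseudocount was run for this share, so it is a rough place for the Gabre pair. Of the 250 pairs, 116 came from 28 miRNAs of 1 cluster on chromosome 2 (miR-297, miR-466, miR-467 and miR-669), where 10 pairs had equal changes and 4 exceeded 0.64. Without that cluster, left out after the values were seen, 36 of 134 pairs, or 26.9%, exceeded 0.64, and the median was 0.37, with quartiles of 0.14 and 0.66. Both changes had the same sign, as in the Gabre pair, in 207 of the 250 pairs.

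**Figure D4:**
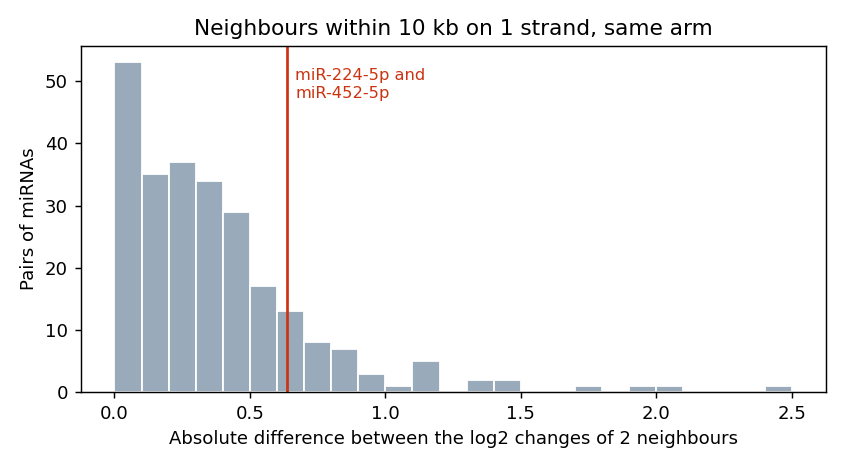
The histogram counts pairs of neighbouring miRNAs by the absolute difference between their log2 changes of (RPM + 1). The red line marks miR-224-5p and miR-452-5p at 0.64. The median was 0.30 over all 250 pairs and 0.37 over the 134 outside the chromosome 2 cluster, whose pairs make up 116 of those drawn.

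Gabre lies on chromosome X, and 37 miRNAs whose hairpins were found on chromosome X alone were tested. Their median log2 change was -0.51, against -0.17 for all 408. Of the 37, 2 were higher at a limma adjusted p under 0.05 and any fold change, and these were miR-224-5p and miR-452-5p. Among all tested miRNAs, 71 of 408 (17.4%) were higher. Lower at the same threshold were 21 of the 37, against 130 of 408 (31.9%). With the log2 threshold of 1, 1 of the 37 was called higher, miR-224-5p, against 18 of 408 (4.41%) among all tested. Called lower were 8 of the 37, against 32 of 408 (7.84%). In 29 of the 37 every TGF-β1 library lay below every Control library, against 147 of 408 (36.0%) among all tested. The same 2 miRNAs were the higher ones of chromosome X in each of the 17 other fits. Both were chosen with this contrast known and the fits reuse the same libraries, so this is a description. The number of lower ones ran from 14 with DESeq2 to 23 with a pseudocount of 10. The largest falls on the chromosome were those of miR-503-5p, from 717.5 ± 31.4 to 142.9 ± 8.76 RPM, miR-351-5p, from 22.8 ± 1.63 to 5.54 ± 0.695 RPM, and miR-351-3p, from 32.4 ± 2.43 to 8.42 ± 1.11 RPM (SD, n = 3 each). They come from 1 cluster, whose miR-503 and miR-322 are known to act on cell cycle mRNAs. Rows from 1 hairpin or cluster are not independent of each other.

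**Figure D5:**
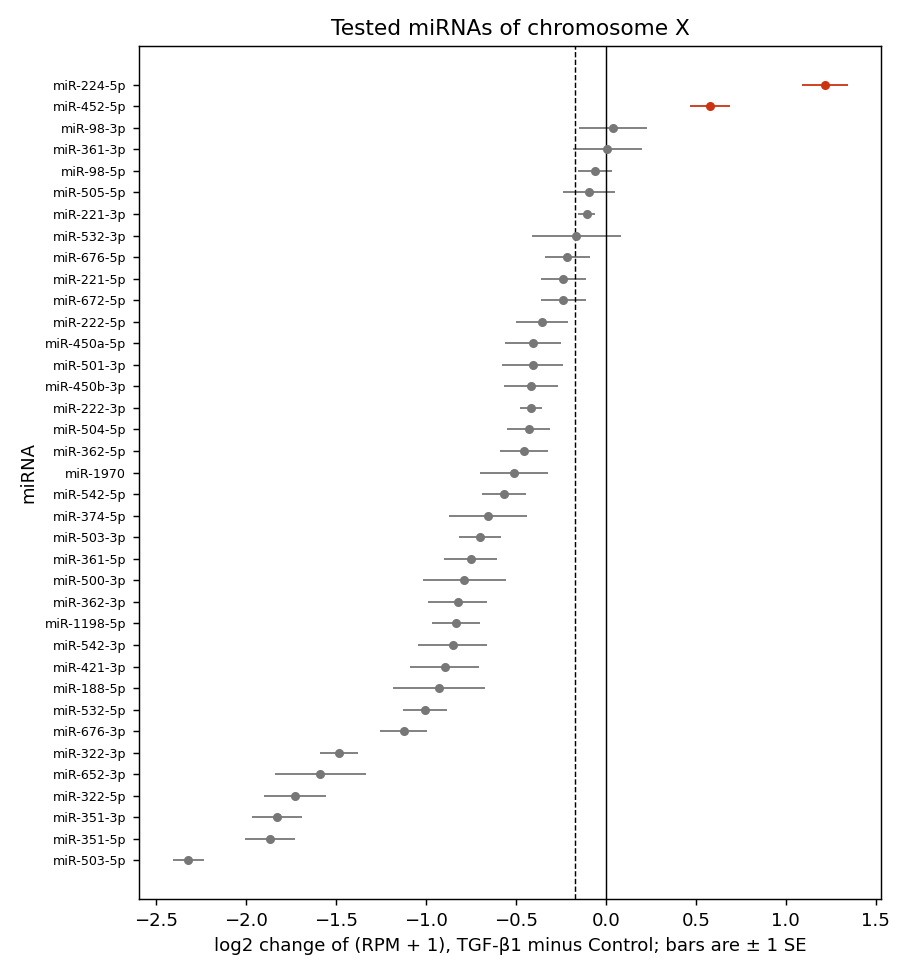
Points are the log2 changes of (RPM + 1) of the 37 tested miRNAs of chromosome X, TGF-β1 minus Control, with bars of 1 SE, a solid line at 0 and a dashed line at the median of all 408 tested miRNAs (-0.17). The Gabre miRNAs, in red, stand at the top at 1.22 and 0.58, and the next is miR-98-3p at 0.04.

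miR-224 has been reported to act on Smad4, and miR-224-5p is among 14 listed and tested miRNAs reported to act on TGF-β receptors or Smads. Of the 14, 1 was called higher, miR-224-5p itself, which was chosen on this contrast and so says nothing about the list. Called lower were 2 of the 14. Among all 408 tested, 18 (4.41%) were called higher and 32 (7.84%) lower. The median log2 change was -0.23, against -0.17 for all tested. The lower ones were miR-26a-5p, reported to act on Smad1, which fell from 543.6 ± 38.1 to 194.5 ± 18.2 RPM, and miR-130a-3p, reported to act on Smad4 as well, which fell from 202.9 ± 17.1 to 82.9 ± 12.9 RPM (SD, n = 3 each). Of the 4 listed for Smad4, miR-224-5p was thus higher, miR-130a-3p lower and miR-18a-5p lower at any fold change only (log2 change -0.57 ± 0.13 SE, limma adjusted p = 0.00892), while miR-146a-5p was not tested. At any fold change 2 of the 14 were higher, against 71 of 408 (17.4%) among all tested. Besides miR-224-5p this was miR-145-5p, reported to act on Smad3, whose log2 change was 0.92 ± 0.16 (limma adjusted p = 0.00235). Lower at any fold change were 5 of the 14, against 130 of 408 (31.9%). miR-21-5p, reported to act on the inhibitory Smad7, was the most abundant of the list, with a log2 difference of 0.13 ± 0.07 (limma adjusted p = 0.163).

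The profile of miR-224-5p over the 6 libraries was most like those of miRNAs from other chromosomes. Likeness was measured as the root mean square difference of log2(RPM + 1) after each row's mean was taken off, among 407 others. The nearest were miR-485-5p (0.115), miR-96-5p (0.119), miR-183-5p (0.12), miR-487b-3p (0.122) and miR-183-3p (0.13), with Pearson r between 0.98 and 0.99 over 6 libraries that fall into 2 groups. Their hairpins lie on chromosomes 12 and 6. miR-485-5p was at a like level and went from 14.4 ± 0.346 to 34.9 ± 2.05 RPM (SD, n = 3 each). miR-452-5p came at place 43, with a difference of 0.335 and a Pearson r of 0.97.

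The profiles nearest to miR-452-5p were those of miR-212-5p (0.0764), miR-329-5p (0.0775), miR-369-5p (0.0901), let-7e-5p (0.0948) and miR-5114 (0.095). let-7e-5p was the only abundant one of these, at 48897 ± 3119 RPM in Control and 69198 ± 2103 RPM in TGF-β1 (SD, n = 3 each), and the other 4 had means from 0.55 to 4.43 RPM. miR-224-5p came at place 137 for miR-452-5p. This measure follows the size of a change and its scatter, and on log2(RPM + 1) it brings low miRNAs closer.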

How the data were processed

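Small RNA of 6 libraries was sequenced on an Illumina instrument. Per the study's methods, adaptors, contaminants, low-quality reads and reads under 18 nt were removed, and reads were compared with miRBase 17 using Bowtie (version not given in the sources used here). The authors deposited values named TPM, which are RPM here, since 100% of them were whole reads (tolerance 0.002) of 1 total per library, with no scaling by length. How reads matching several miRNAs were counted is not given in the sources used here.

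Group was the only term of the main model, fitted to log2(RPM + 1) by limma 3.58.1 in R 4.3.3 (trended variance prior) over the 408 rows kept by filterByExpr of edgeR 4.0.16 (minimum count 10) on the recovered reads, with Benjamini-Hochberg adjustment over all of them. A count test was an alternative because the values are normalized: edgeR called 32 higher and 54 lower on the recovered reads. Other alternatives were DESeq2 1.42.0, other scalings, filters, pseudocounts, the fold threshold, a replicate block and leaving out each library. Chi-square per degree of freedom between replicates ran from 43.2 to 135.2, and no library was treated as deposited more than once.

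Hairpins were found by name in GENCODE vM1 (NCBIM37) for 577 of 778 rows, and for the chromosome X list RefSeq loci were added. Intervals cover counting error only, as PCR reads are not independent molecules. The members, lists and tests were chosen with earlier results of these data known. Named miRNAs are the 4 arms, the 5 profiles most like each 5p arm, the called list members with the 3 largest changes, the miRNAs next to the threshold, and the marker miRNAs; other list members were named after their values were seen.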

Additional observations from a re-analysis of the deposited data

How the results depend on the processing

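Both 5p arms stayed higher in TGF-β1 under every alternative run. miR-224-5p kept its call at a log2 change above 1 in 16 of 17 other fits, not with a pseudocount of 10. miR-452-5p stayed under 1 in all 17. These fits reuse the libraries on which the rows were chosen, so they describe the processing and are no test of the difference. A changed filter leaves the log2 changes the same by construction. Their log2 changes, in that order, were 1.36 and 0.73 under TMM, 1.42 and 0.79 under median-of-ratios scaling, 1.35 and 0.71 with the sum of the rows, 1.43 and 0.75 with edgeR and TMM, 1.496 and 0.81 with DESeq2, and 0.84 and 0.47 with a pseudocount of 10, where their difference was 0.37. Leaving out each library gave 1.16 to 1.28 for miR-224-5p, 0.53 to 0.61 for miR-452-5p and 0.56 to 0.70 for their difference.

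The miRNAs called higher numbered 18, against 31 with median-of-ratios scaling, 32 with edgeR on library totals, 45 with edgeR and TMM, 46 with DESeq2, 32 with a pseudocount of 0.1 and 2 with one of 10. Those called lower numbered 32, against 22 with median-of-ratios scaling, 54 with edgeR on library totals, 41 with edgeR and TMM and 31 with DESeq2. A pseudocount of 0.1 gave 54 lower and one of 10 gave 15. With TMM scaling, median-of-ratios scaling, edgeR and TMM, and DESeq2, more miRNAs were thus called higher than lower, unlike in the main fit. TMM scaling gave 25 higher and 24 lower, and scaling to the sum of the rows gave 24 of each. An absolute log2 change above 2 left 0 higher with limma (228 had an unadjusted p under 0.05; edgeR on library totals gave 7 higher, edgeR with TMM 8 and DESeq2 8) and 6 lower, fewer by construction. Calls numbered 15 to 21 higher and 26 to 41 lower when single libraries were left out. Except for the fold threshold, the cause was not tested. Same-numbered libraries did not deviate together (correlations of -0.08, -0.21 and -0.34; 0 of 6 correlated best with the library of its own number), and the replicate block gave 18 higher and 32 lower. Its log2 changes were the same by construction, since each replicate number stands once in each group. The 3p arms failed the filter, so they and the arm differences have no value under any alternative but no filter, where the log2 changes of miR-224-3p and miR-452-3p were 0.10 and 0.025. Depth limits the 3p arms, at 0 to 5 reads a library.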
